A study of Homo sapiens with 42 samples.

Results

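Kinesins are motor proteins that use ATP to move along microtubules or to shorten them, and most of their genes carry symbols that start with KIF or KIFC. All genes whose symbol in the array's platform annotation has such a start followed by a digit were taken, which gave 45 of the 19775 genes measured. Each gene was read by 1 probe set, the one with a single gene symbol and the highest mean log2 signal over the 42 arrays. By textbook roles, 13 were classed as mitotic kinesins, 15 as transport kinesins, 13 as other kinesins (cilia, signalling, microtubule regulation or little known) and 4 as antisense RNAs named after a kinesin, which are not motors. KIF4B, a near copy of KIF4A, has no probe set with a single symbol and was not analysed here.

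RNA came from A375 cells, a human melanoma line, and was measured on 1 Affymetrix whole-genome array for each sample. Cells were transfected for 48 h with siRNA against p53, CDT1, BRCA1 or with GL2 siRNA, the control siRNA, and were then treated for 26 h. Treatments were 5 uM Nutlin, which frees p53 from its inhibitor MDM2, 100 nM daunorubicin, which damages DNA, 650 nM MLN4924, which blocks the NEDD8 pathway and so the cullin ubiquitin ligases, or 0.065% DMSO as vehicle. The 14 groups of 3 arrays were Nutlin, daunorubicin, MLN4924 and DMSO in 2 sets, called first and second, in p53 siRNA cells, MLN4924 and DMSO in CDT1 siRNA cells, MLN4924 and DMSO in BRCA1 siRNA cells, and Nutlin, daunorubicin, MLN4924 and again both DMSO sets in GL2 siRNA cells.

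The labels do not say which of the 2 DMSO sets belongs to which treatment, so the 6 DMSO arrays of GL2 siRNA cells, and likewise those of p53 siRNA cells, were pooled as the control. The 3 drugs, and the siRNAs under DMSO, therefore share control arrays. All samples come from 1 cell line, and nothing in the labels says that the 3 arrays of a group are separate cultures, and the p-values below therefore speak only of how much these arrays vary, some or all of which may be technical. Levels below are log2 signals, with the median gene of every array brought to the same value, and changes are log2 differences between group means with their standard error. The standard error of a gene rests on its spread within all 14 groups, not only within the groups compared. A change was called where limma gave an adjusted p under 0.05 (Benjamini-Hochberg, over the 19775 genes) and the difference was at least 1.5-fold.

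Mitotic kinesins build the bipolar spindle, move and align chromosomes, set the length of microtubule ends and organise the midzone where the cell divides. Their genes are mostly transcribed late in the cell cycle, and many belong to the group that the DREAM complex represses when p53 and its target p21 (CDKN1A) are active. Promoters of such genes often hold CCAAT boxes, bound by NF-Y, and a cell cycle homology element, whose letters are often TTTGAA. Transport kinesins carry vesicles, organelles, RNA and ciliary cargo along microtubules in non-dividing as in dividing cells.

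Before the comparisons, 3 libraries need naming, because they stand apart or go against their labels. BRCA1 had log2 signals of 4.93, 5.28 and 8.18 in the MLN4924 arrays of BRCA1 siRNA cells, against 7.95, 8.24 and 4.70 in those of GL2 siRNA cells. CDT1 had 7.27, 7.31 and 8.61 in the same BRCA1 siRNA arrays and 8.86, 8.81 and 7.27 in the same GL2 siRNA arrays. The third array of each group thus reads like the first and second arrays of the other group for both genes. These are written below as the library labelled BRCA1 siRNA MLN4924 replicate 3 and the library labelled GL2 siRNA MLN4924 replicate 3. On the first daunorubicin array of p53 siRNA cells the actin 5'-to-3' signal ratio was 0.0118, against 0.649 to 0.945 on the 41 other arrays, and the GAPDH ratio was 0.0509 against 0.989 to 1.19. Values below are with all arrays unless said otherwise. For part of the results that rest on these 3 libraries the value without them is also given.

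The siRNA and drug checks were otherwise as follows. CDKN1A, a p53 target, was lower in p53 siRNA cells than in GL2 siRNA cells under DMSO, with a log2 difference of -2.09 (adjusted p = 1.59e-13), and Nutlin raised CDKN1A by 3.26 and MDM2 by 2.73 in GL2 siRNA cells. Under DMSO the log2 difference of CDT1 was -2.17 with CDT1 siRNA (adjusted p = 4.97e-07), and that of BRCA1 was -2.89 with BRCA1 siRNA (adjusted p = 1.62e-04). Of 7 melanocyte genes measured, 4 had a median above the dim level of log2 5.00, the median of all values. MITF was at 8.29, SOX10 at 10.3, S100B at 8.41 and TYR barely above the level at 5.01, while PMEL, MLANA and TYRP1 were below it. Of the genes listed for other cell types, 2 of 5 epithelial, 3 of 5 fibroblast and 1 of 4 leukocyte genes also had a median above it. These counts alone do not set the melanocyte list apart from the fibroblast list. No detection calls were used here. Of the kinesins, 18 lay above the dim level on every array and 8 below it on every array: KIF1A, KIF2B, KIF17, KIF26A, KIF27, KIF1C-AS1, KIF23-AS1 and KIF25-AS1.

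Promoter windows of 300 bases, from 250 before to 50 after a gene's start, were matched in RefSeq (GRCh38.p14) for 36 of the 45 genes. The box CCAAT, the element TTTGAA and its variant form TTTAAA were searched on both strands. The variant reads the same on both strands and was counted once at each place, and matches of different motifs can share bases. Of the 35116 promoters in the table, 34.6% held the box, 15.2% the element, 12.2% its variant, 24% the element or its variant, and 9.27% the box together with one of these. All 13 mitotic kinesins had a window. The box was found for 10 of them (not for KIF2B, KIF2C or KIF15), the element for 9, its variant for 4, the element or its variant for 11 (not for KIF2B or KIF22), and the combination for 9. Of 11 transport kinesins with a window, 4 held the box, 2 held the element or its variant (KIF5B and KIF16B) and 1 held the combination. Of 9 other kinesins with a window, 3 held the box and 0 held the element or its variant. A gene was counted if any of its windows held a match, while the shares of all promoters are of single windows. By single windows the box was in 10 of 14 mitotic, 5 of 16 transport and 4 of 12 other windows. The element or its variant was in 11, 2 and 0 of these. A match describes the letters of a window and is not a measured site.

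The 5 mitotic promoters printed here belong to genes whose values carry the comparisons below, and the promoter of KIF5B, the kinesin-1 heavy chain of most cells, is shown beside them because it holds the same letters in a transport gene. Capitals mark matches on either strand, so that ATTGG is the box read on the opposite strand and the letters TTCAAA are the element read that way. The windows are chr6:33391573-33391872 on the plus strand for KIFC1, chr17:44947724-44948023 on the minus strand for KIF18B, chr1:200620702-200621001 on the minus strand for KIF14, chr5:138178862-138179161 on the plus strand for KIF20A, chr16:29790501-29790800 on the plus strand for KIF22 (the first of its 2 windows) and chr10:32056376-32056675 on the minus strand for KIF5B, each read 5′ to 3′ along the gene.
KIFC1: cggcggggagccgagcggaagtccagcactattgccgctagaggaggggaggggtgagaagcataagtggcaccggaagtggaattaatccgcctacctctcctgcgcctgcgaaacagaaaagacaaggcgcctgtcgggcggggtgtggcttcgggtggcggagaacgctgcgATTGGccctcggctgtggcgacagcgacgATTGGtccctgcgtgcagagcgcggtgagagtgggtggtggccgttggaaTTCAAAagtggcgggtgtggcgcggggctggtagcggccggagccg
KIF18B: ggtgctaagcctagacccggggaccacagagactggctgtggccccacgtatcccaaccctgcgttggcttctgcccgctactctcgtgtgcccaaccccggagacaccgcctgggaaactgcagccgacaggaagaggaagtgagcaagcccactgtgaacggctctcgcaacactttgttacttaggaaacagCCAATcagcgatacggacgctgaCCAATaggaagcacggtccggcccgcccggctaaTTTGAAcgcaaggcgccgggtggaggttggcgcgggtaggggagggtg
KIF14: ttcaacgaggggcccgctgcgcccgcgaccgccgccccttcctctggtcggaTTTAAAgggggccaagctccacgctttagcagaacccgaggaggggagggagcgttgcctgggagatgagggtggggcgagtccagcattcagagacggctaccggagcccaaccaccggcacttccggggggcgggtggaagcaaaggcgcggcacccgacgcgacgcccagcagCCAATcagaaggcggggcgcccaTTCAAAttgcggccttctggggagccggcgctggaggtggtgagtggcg
KIF20A: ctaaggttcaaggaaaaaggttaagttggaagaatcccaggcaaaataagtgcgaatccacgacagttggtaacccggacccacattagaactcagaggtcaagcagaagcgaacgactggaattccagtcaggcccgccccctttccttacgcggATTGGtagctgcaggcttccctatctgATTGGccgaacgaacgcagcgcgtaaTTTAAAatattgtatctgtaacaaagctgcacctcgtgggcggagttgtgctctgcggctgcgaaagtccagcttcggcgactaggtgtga
KIF22: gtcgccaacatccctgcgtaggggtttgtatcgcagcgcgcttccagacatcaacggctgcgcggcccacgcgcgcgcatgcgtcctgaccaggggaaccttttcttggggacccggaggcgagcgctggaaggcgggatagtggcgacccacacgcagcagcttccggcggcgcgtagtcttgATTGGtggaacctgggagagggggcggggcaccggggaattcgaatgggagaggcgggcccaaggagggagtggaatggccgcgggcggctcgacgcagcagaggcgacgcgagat
KIF5B: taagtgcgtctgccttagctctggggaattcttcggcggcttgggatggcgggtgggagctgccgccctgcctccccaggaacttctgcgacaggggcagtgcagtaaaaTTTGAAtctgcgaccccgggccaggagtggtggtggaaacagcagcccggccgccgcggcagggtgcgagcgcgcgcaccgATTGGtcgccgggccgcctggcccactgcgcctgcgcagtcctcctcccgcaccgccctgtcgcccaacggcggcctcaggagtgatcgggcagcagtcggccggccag

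In GL2 siRNA cells all 3 drugs lowered the mitotic kinesins together. At most 4 of the 15 transport kinesins were called with any one drug, some up and some down, and these counts were not tested against the shares of all genes given below. With Nutlin, 12 of the 13 mitotic kinesins fell and none rose, with a median log2 difference of -4.41 over the 13, against 0.02 over all genes. With daunorubicin the same count fell, with a median of -4.07 against 0.00 over all genes. With MLN4924 the count was again 12, with a median of -1.56 against 0.08. The mitotic kinesin that was not called is KIF2B, whose probe set was dim on every array. Of the 45 kinesins, Nutlin lowered 18 and raised 3, where 10.8% of all genes were called lower and 7.91% higher. Daunorubicin lowered 18 and raised 2, with 11.4% of all genes called lower and 7.73% higher. MLN4924 lowered 15 and raised 4, with 7.06% of all genes called lower and 10.2% higher. In RNA of whole cultures, fewer cells of a kind, such as cells in mitosis, and less RNA per cell cannot be told apart. Without centring, the median gene's difference would move by 0.17 for Nutlin, 0.21 for daunorubicin and -0.18 for MLN4924 in GL2 siRNA cells, by 0.15 for Nutlin and -0.42 for MLN4924 in p53 siRNA cells, by -0.11 and -0.18 for MLN4924 in CDT1 and BRCA1 siRNA cells, by -0.35 between MLN4924 and Nutlin, and by -0.13 for daunorubicin and -0.23 for MLN4924 in the differences of changes between p53 and GL2 siRNA cells. At the deposited scaling Nutlin in GL2 siRNA cells lowered 1495 and raised 2544 genes, against 2140 and 1565 with centring, and the kinesin counts were 17 lower and 2 higher with MLN4924 in GL2 siRNA cells and 14 lower and 2 higher in BRCA1 siRNA cells. The 12 mitotic kinesins fell with each of the 3 drugs in GL2 siRNA cells under that scaling too.

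**Figure D1:**
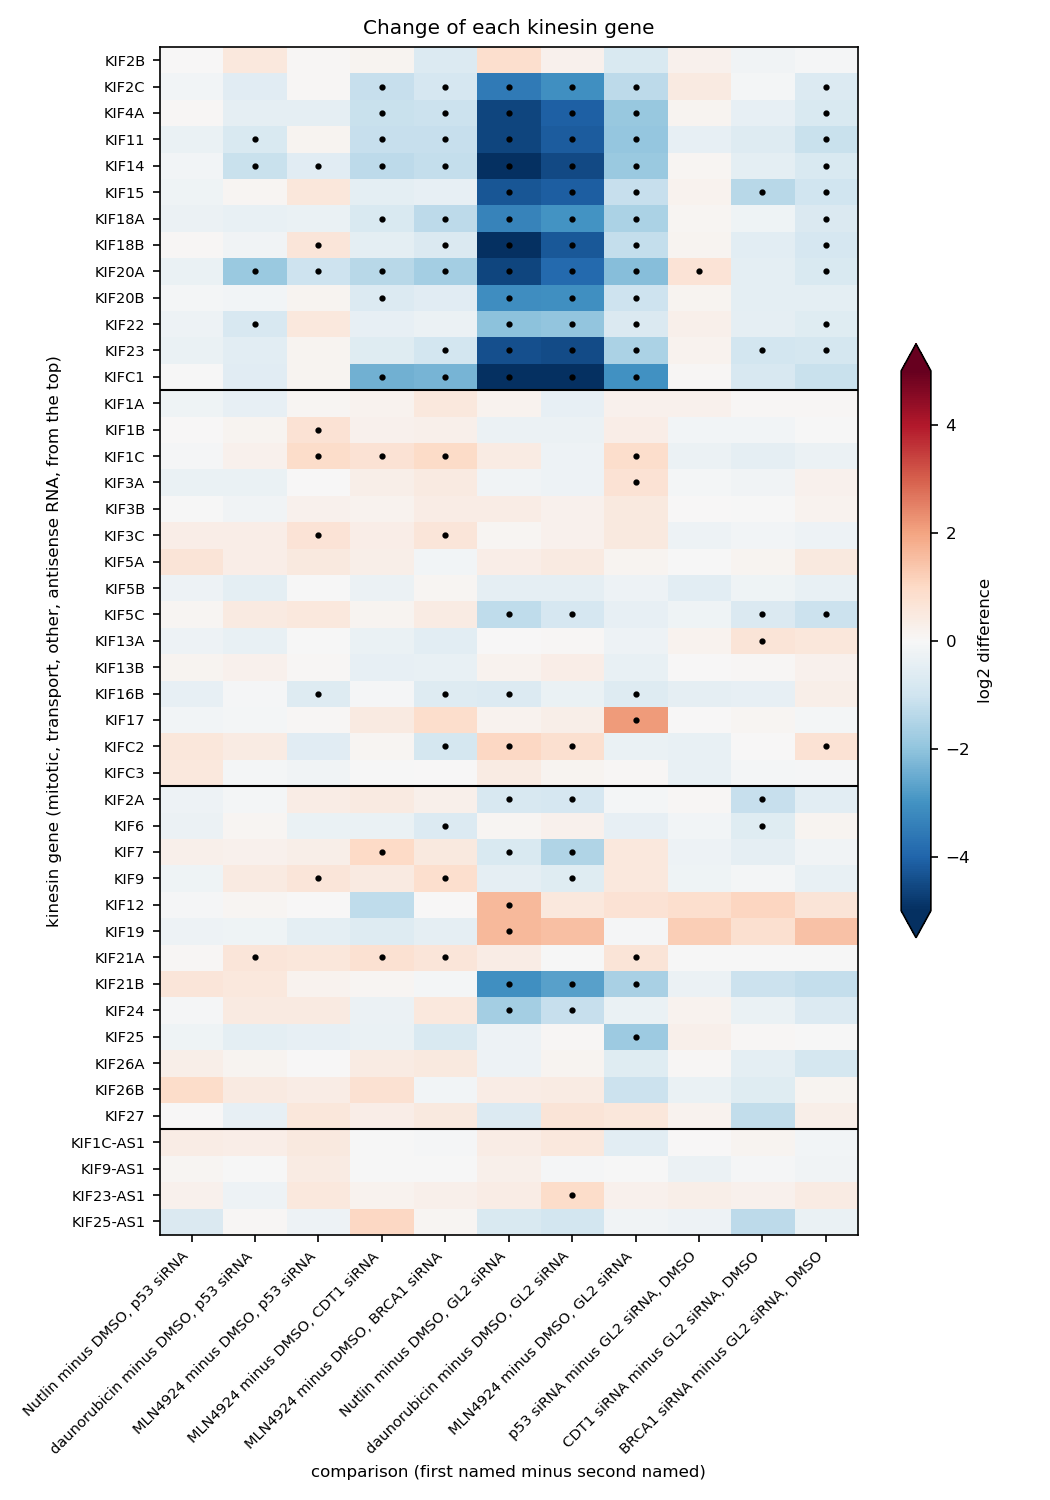
Log2 difference of each of the 45 kinesin genes (down the page: mitotic, transport, other, antisense RNA) in 11 comparisons (across), blue for lower and red for higher, with colours clipped at 5 and a dot where the gene was called. The upper block is blue in the 3 GL2 siRNA columns for every mitotic gene other than KIF2B, and nearly blank for Nutlin in p53 siRNA cells.

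Among motors that set the distance between spindle poles, KIF11 slides antiparallel microtubules apart. Its log2 signals were 5.57, 5.28 and 5.29 with Nutlin in GL2 siRNA cells, against DMSO values from 9.90 to 10.11 (median 9.98). They were 5.86, 6.01 and 5.65 with daunorubicin and 8.47, 8.25 and 7.45 with MLN4924. No drug array reached the DMSO arrays, and the log2 differences were -4.61 ± 0.25 (SE) for Nutlin, -4.15 ± 0.25 (SE) for daunorubicin and -1.93 ± 0.25 (SE) for MLN4924, with adjusted p of 1.09e-15, 1.86e-14 and 2.96e-07. KIF15, which can stand in for KIF11, had log2 signals of 3.93, 4.03 and 2.83 with Nutlin, against DMSO values from 7.78 to 8.08 (median 7.85). With daunorubicin KIF15 had 3.90, 3.86 and 3.54, and with MLN4924 7.10, 7.26 and 5.78. Its Nutlin and daunorubicin arrays were all under the dim level, its log2 differences were -4.29, -4.12 and -1.17, and the last shrank to -0.70 without the library labelled GL2 siRNA MLN4924 replicate 3.

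KIFC1, a minus-end motor that draws poles together and clusters extra centrosomes, had the lowest log2 difference of the mitotic kinesins with each of the 3 drugs. Its log2 signals were 2.75, 1.99 and 2.77 with Nutlin and 2.36, 2.37 and 3.02 with daunorubicin, against DMSO values from 8.02 to 8.29 (median 8.14). With MLN4924 the arrays read 5.93, 6.40 and 3.06, so the library labelled replicate 3 lay below the others. The log2 differences were -5.64 ± 0.49 (SE) for Nutlin (adjusted p = 9.67e-11), -5.55 ± 0.49 (SE) for daunorubicin (adjusted p = 1.53e-10) and -3.01 ± 0.49 (SE) for MLN4924 (adjusted p = 1.38e-05). Without the library labelled GL2 siRNA MLN4924 replicate 3 the MLN4924 difference was -1.98 and the call stood. The treated signals of KIFC1 with Nutlin and daunorubicin lie under the dim level, where 1 log2 unit is a small difference in signal.

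Among motors that act at microtubule ends, KIF18A shortens the swings of chromosomes at the spindle equator. Its log2 signals were 4.65, 4.42 and 4.30 with Nutlin, against DMSO values from 7.58 to 8.41 (median 7.67). Daunorubicin arrays read 4.87, 4.80 and 4.79 and MLN4924 arrays 6.36, 6.21 and 6.12. The drug arrays all lay below the DMSO arrays, with log2 differences of -3.34, -2.97 and -1.56. KIF18B, which limits the length of astral microtubules, had log2 signals of 4.92, 5.15 and 4.75 with Nutlin, against DMSO values from 10.03 to 10.28 (median 10.13). It had 5.97, 5.87 and 5.80 with daunorubicin and 9.48, 9.43 and 7.95 with MLN4924. The Nutlin difference of KIF18B was -5.19 ± 0.24 (SE), a 36.6-fold lower signal (adjusted p = 2.31e-17), the daunorubicin difference -4.26 and the MLN4924 difference -1.18. Leaving out the library labelled GL2 siRNA MLN4924 replicate 3 brought the last to -0.68.

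KIF2C (MCAK), which shortens microtubules and releases wrong attachments at centromeres, had log2 signals of 6.17, 5.59 and 6.31 with Nutlin, against DMSO values from 9.43 to 9.70 (median 9.55). Its daunorubicin arrays read 6.24, 6.64 and 6.57 and its MLN4924 arrays 8.45, 8.50 and 7.80. All stayed above the dim level and below every DMSO array, with log2 differences of -3.52 ± 0.16 (SE), -3.07 ± 0.16 (SE) and -1.30 ± 0.16 (SE). KIF2B, a relative of KIF2C, had log2 signals of 3.74, 2.76 and 0.81 with Nutlin, 1.44, 2.19 and 1.77 with daunorubicin and 1.09, 0.88 and 0.51 with MLN4924, against DMSO values from 0.80 to 3.16 (median 1.39). These values overlap and are all dim, and KIF2B was called in 0 of the 18 comparisons.

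Of the chromosome arm motors, KIF4A also binds the midzone protein PRC1. Its log2 signals were 4.90, 4.32 and 4.40 with Nutlin, against DMSO values from 8.94 to 9.33 (median 9.15). With daunorubicin they were 5.39, 5.17 and 4.69 and with MLN4924 7.64, 7.50 and 6.61. The groups did not overlap, and the log2 differences were -4.61 ± 0.19 (SE), -4.07 ± 0.19 (SE) and -1.90 ± 0.19 (SE). KIF22 (Kid), which pushes chromosome arms away from the poles, had the smallest log2 difference of the 12 with each drug. Its log2 signals were 5.92, 4.83 and 5.98 with Nutlin, against DMSO values from 7.38 to 7.81 (median 7.64). Daunorubicin arrays read 5.63, 5.78 and 5.59 and MLN4924 arrays 7.12, 7.09 and 6.48. The differences were -2.06 ± 0.20 (SE) for Nutlin (adjusted p = 9.58e-10), -1.96 ± 0.20 (SE) for daunorubicin (adjusted p = 2.57e-09) and -0.74 ± 0.20 (SE) for MLN4924 (adjusted p = 0.00467), and the last, at -0.53, was no longer called without the library labelled GL2 siRNA MLN4924 replicate 3.

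Motors of the midzone and of cytokinesis fell as well. KIF20A (MKLP2), which brings Aurora B to the midzone, had log2 signals of 4.42, 4.40 and 4.28 with Nutlin, against DMSO values from 8.87 to 9.09 (median 8.96). It had 5.15, 5.19 and 4.91 with daunorubicin and 7.29, 6.91 and 6.36 with MLN4924. The differences were -4.60 ± 0.18 (SE), -3.89 ± 0.18 (SE) and -2.12 ± 0.18 (SE), with adjusted p of 8.19e-19, 7.03e-17 and 1.65e-10. KIF23 (MKLP1), which forms centralspindlin with RACGAP1, had log2 signals of 4.16, 4.76 and 4.69 with Nutlin, against DMSO values from 8.80 to 9.10 (median 8.95). Its arrays read 4.25, 4.62 and 4.60 with daunorubicin and 7.65, 7.38 and 7.09 with MLN4924, all apart from the DMSO arrays. The differences were -4.41, -4.46 and -1.58.

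KIF14, which binds citron kinase at the midbody, had log2 signals of 4.92, 4.11 and 5.13 with Nutlin, against DMSO values from 9.74 to 9.98 (median 9.97). With daunorubicin it had 5.46, 5.50 and 5.28 and with MLN4924 8.28, 8.23 and 7.60. Its log2 differences were -5.19 ± 0.19 (SE), -4.50 ± 0.19 (SE) and -1.87 ± 0.19 (SE), and no drug array reached a DMSO array. KIF20B, a further cytokinesis motor, had log2 signals of 6.37, 5.55 and 5.82 with Nutlin, against DMSO values from 8.78 to 9.15 (median 9.02). Its arrays read 5.94, 5.90 and 5.96 with daunorubicin and 8.0, 8.23 and 7.70 with MLN4924. The differences were -3.09, -3.07 and -1.03, but the other probe sets of KIF20B differed from DMSO by only -0.61 to 0.03 with Nutlin, and with the mean of all its probe sets the values were -1.23, -1.51 and -0.46, the last no longer called.

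**Figure D2:**
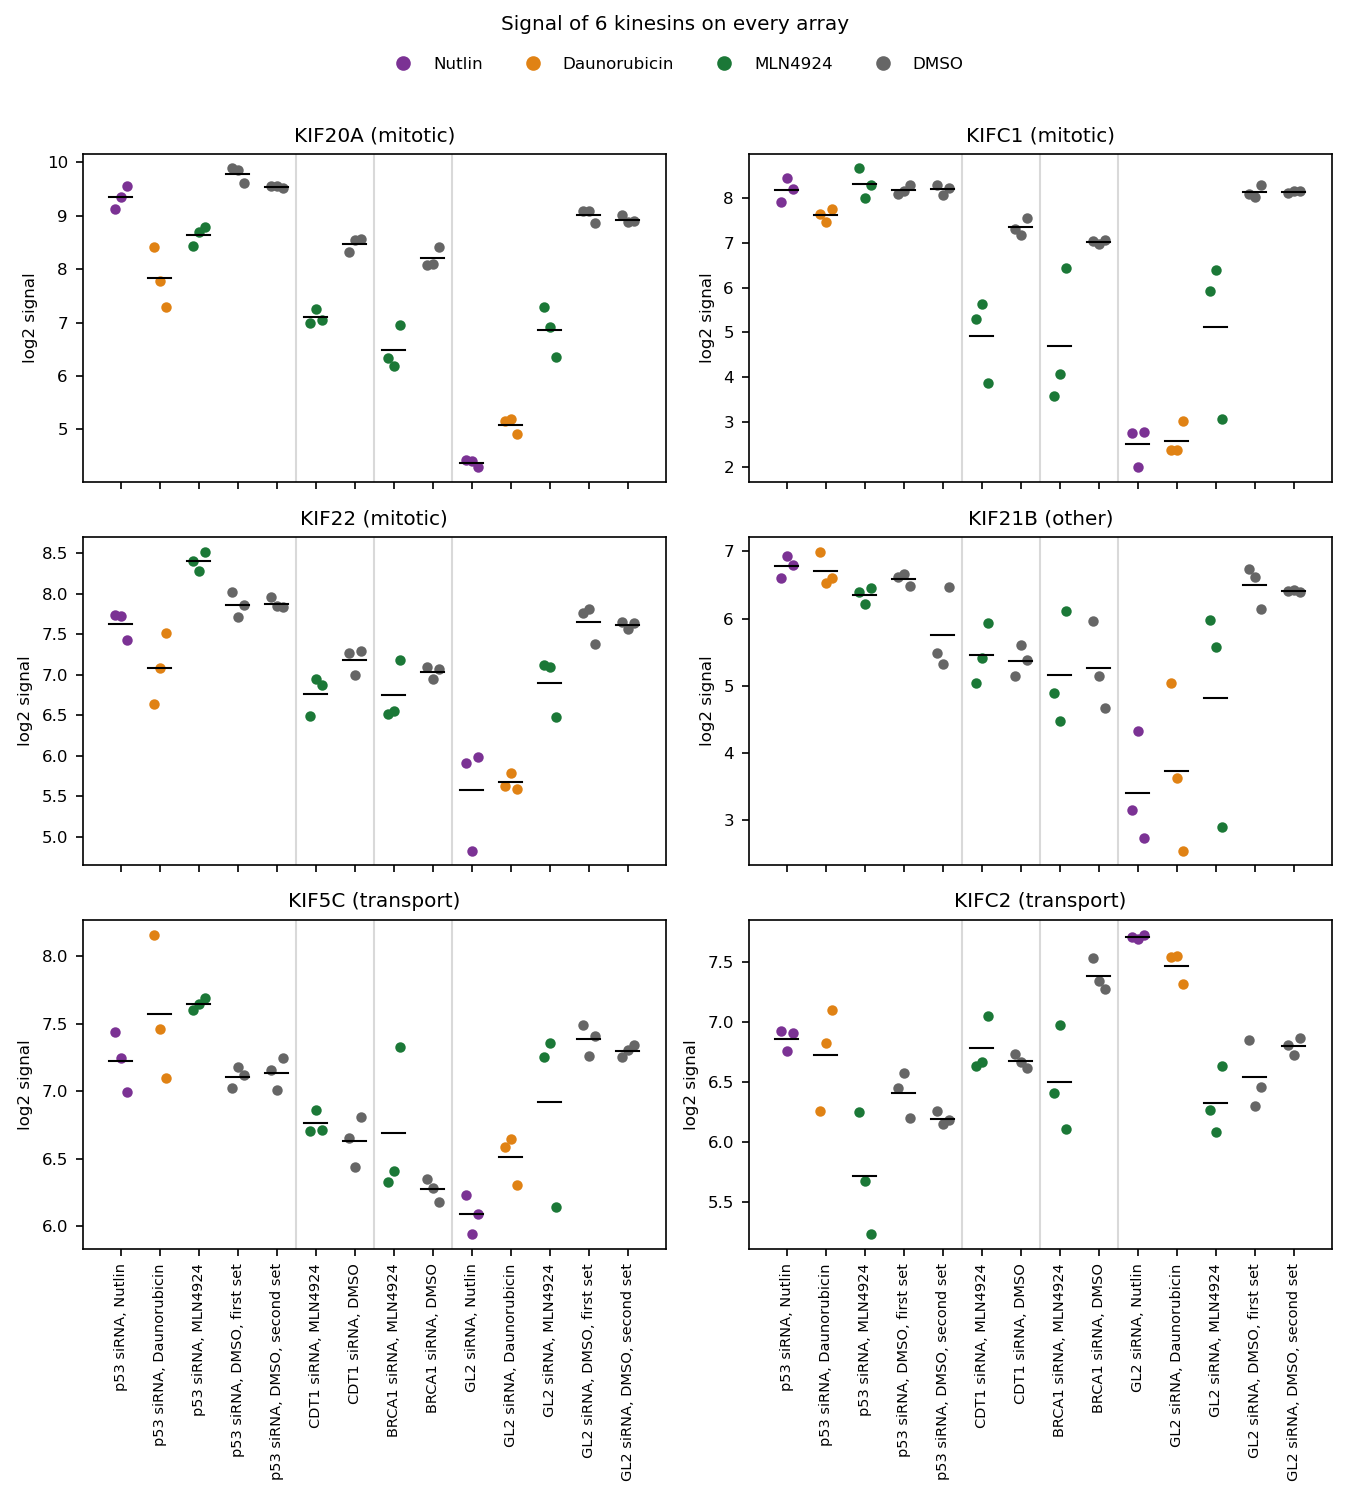
Log2 signal (vertical axes) of 6 kinesins on each array of the 14 groups (horizontal axis), with bars at group means of 3 arrays and colours for the treatment. KIF20A, KIFC1, KIF22 and KIF21B are low on the Nutlin and daunorubicin arrays of GL2 siRNA cells and near the DMSO level on the Nutlin arrays of p53 siRNA cells, KIF5C shows a smaller change, and KIFC2 is higher with both drugs in GL2 siRNA cells.

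The drugs lowered the mitotic kinesins to different extents in GL2 siRNA cells. MLN4924 and Nutlin share no treated array, and their direct contrast does not use the DMSO arrays. All 12 mitotic kinesins other than KIF2B were higher with MLN4924 than with Nutlin, by a median log2 difference of 2.62 over the 13 against 0.05 over all genes. Over all 45 kinesins 21 were higher and 2 lower in that contrast, where 18.1% of all genes were higher and 9.47% lower. Without centring the kinesins split into 16 higher and 9 lower there, and all genes into 1769 higher and 3885 lower, and the 12 mitotic kinesins were still higher. The difference ran from 1.32 for KIF22 to 4.01 for KIF18B. The call of KIF5C, at 0.83, was lost without GL2 siRNA MLN4924 replicate 1 or 2 (0.61 to 0.66). KIF25 and KIFC2 were lower with MLN4924 than with Nutlin, at -1.56 and -1.38. The calls of KIF17 (1.94) and KIF21B (1.42) were lost without MLN4924 replicate 1, at 0.91 and 0.84, and that of KIF21B also without Nutlin replicate 1 or 3 or MLN4924 replicate 2, at up to 1.29, while KIF21B reached 2.38 without the library labelled replicate 3, and with 16 added to each signal KIFC1 was at 1.50 in place of 2.62. Daunorubicin and Nutlin differed for 1 kinesin, KIF1C, which was lower with daunorubicin at -0.69 ± 0.20 (SE) (adjusted p = 0.0483), where 1.08% of all genes were lower and 1.22% higher. For that contrast 8 kinesins passed an unadjusted p of 0.05. The 12 mitotic kinesins other than KIF2B stood between -0.05 and 0.94 in daunorubicin minus Nutlin, with KIF18B highest at 0.94 ± 0.28 (SE) (adjusted p = 0.0561). The call of KIF1C was lost without any 1 of the Nutlin or daunorubicin arrays, at differences from -0.75 to -0.58, and with the mean of all probe sets, at -0.48.

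In p53 siRNA cells no mitotic kinesin was called with Nutlin, 4 fell with daunorubicin, and with MLN4924 2 fell and 1 rose. With Nutlin 0 kinesins were called by limma, where 0.733% of all genes were lower and 0.420% higher. At an unadjusted p of 0.05, 5 kinesins passed, all of them transport kinesins, and other settings called 0 to 3 kinesins. The 12 mitotic differences ran from -0.33 for KIF23 to 0.06 for KIF18B, and their 95% intervals reached from -1.0 to 1.0 at the widest. The Nutlin arrays of KIF11 and KIF23 all lay below the DMSO arrays, without a call. Where a mitotic gene had other probe sets, these stood at -0.99 for KIF22, -0.62 to 0.17 for KIF20B, -0.41 for KIF23, -0.23 for KIF14 and -0.14 for KIF2C. With daunorubicin KIF11, KIF14, KIF20A and KIF22 fell and KIF21A rose, where 7.38% of all genes were lower and 6.52% higher. With MLN4924 3 kinesins fell (KIF14, KIF20A and KIF16B) and 5 rose (KIF18B, KIF1B, KIF1C, KIF3C and KIF9), where 7.60% of all genes were lower and 17.8% higher.

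KIF20A was the mitotic kinesin with the lowest log2 difference in p53 siRNA cells for daunorubicin and for MLN4924. Its log2 signals were 9.13, 9.35 and 9.56 with Nutlin, 8.42, 7.78 and 7.28 with daunorubicin and 8.43, 8.70 and 8.79 with MLN4924, against DMSO values from 9.53 to 9.89 (median 9.59). The Nutlin arrays reached into the DMSO range and the other drug arrays lay below it. The differences were -0.32 ± 0.18 (SE) (adjusted p = 0.349), -1.84 ± 0.18 (SE) (adjusted p = 1.02e-08) and -1.03 ± 0.18 (SE) (adjusted p = 3.19e-05). KIF14 had log2 signals of 9.81, 9.81 and 9.91 with Nutlin, 9.49, 8.67 and 8.52 with daunorubicin and 9.43, 9.46 and 9.34 with MLN4924, against DMSO values from 9.72 to 10.24 (median 10.0). The last 2 drugs gave differences of -1.10 ± 0.19 (SE) and -0.59 ± 0.19 (SE), with no overlap, but the MLN4924 call was lost without p53 siRNA DMSO first set replicate 1, p53 siRNA DMSO second set replicate 1 or 3 or p53 siRNA MLN4924 replicate 3 (-0.58 to -0.54).

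KIF11 had log2 signals of 9.31, 9.18 and 9.26 with Nutlin, 9.87, 8.23 and 8.33 with daunorubicin and 9.61, 9.55 and 9.93 with MLN4924, against DMSO values from 9.38 to 9.72 (median 9.58). Its first daunorubicin array, the one with the low actin ratio, lay above every DMSO array, and the other 2 lay below them. The daunorubicin difference was -0.76 ± 0.25 (SE) (adjusted p = 0.0225), -1.29 without that array and -0.47 and no longer called without the second, as it was without the third (-0.52). KIF22 had log2 signals of 7.73, 7.72 and 7.43 with Nutlin, 6.64, 7.09 and 7.52 with daunorubicin and 8.40, 8.28 and 8.52 with MLN4924, against DMSO values from 7.71 to 8.02 (median 7.86). Here the array with the low actin ratio was the lowest of the 3, the difference was -0.79 ± 0.20 (SE), and without it -0.57 was not called.

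KIF18B had log2 signals of 10.28, 10.32 and 10.42 with Nutlin, 10.55, 9.92 and 9.86 with daunorubicin and 11.04, 10.77 and 10.88 with MLN4924, against DMSO values from 10.01 to 10.46 (median 10.30). Its MLN4924 arrays were the highest, at a difference of 0.62 ± 0.24 (SE) (adjusted p = 0.0382), a call lost without p53 siRNA DMSO first set replicate 2 or 3, p53 siRNA DMSO second set replicate 2 or 3 or p53 siRNA MLN4924 replicate 1, 2 or 3 (0.55 to 0.69). KIFC1 had log2 signals of 7.92, 8.44 and 8.20 with Nutlin, 7.65, 7.46 and 7.76 with daunorubicin and 8.66, 8.01 and 8.30 with MLN4924, against DMSO values from 8.07 to 8.31 (median 8.20). Only the daunorubicin arrays stood apart from DMSO, at -0.57 ± 0.49 (SE) (adjusted p = 0.462), which was not called. The standard error of KIFC1 rests on an SD of 0.71 within all 14 groups, against an SD of 0.10 over these DMSO arrays.

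KIF15 had log2 signals of 7.68, 7.85 and 8.03 with Nutlin, 8.77, 7.90 and 7.79 with daunorubicin and 8.60, 8.62 and 8.68 with MLN4924, against DMSO values from 7.90 to 8.24 (median 8.04). KIF23 had 8.78, 8.82 and 8.85 with Nutlin, 9.46, 8.22 and 8.16 with daunorubicin and 9.36, 9.18 and 9.35 with MLN4924, against DMSO values from 9.0 to 9.29 (median 9.17). KIF15 was above the DMSO range on every MLN4924 array (0.58 ± 0.26 (SE), adjusted p = 0.0847, not called), and the first daunorubicin array was the highest of its group for both genes. KIF2C read 9.73, 9.87 and 9.98 with Nutlin, 9.77, 9.39 and 9.15 with daunorubicin and 10.13, 9.87 and 10.14 with MLN4924, against DMSO values from 9.78 to 10.19 (median 10.01). KIF4A read 9.24, 9.28 and 9.46 with Nutlin, 9.39, 8.68 and 8.49 with daunorubicin and 8.91, 8.66 and 8.90 with MLN4924, against DMSO values from 9.17 to 9.42 (median 9.29). Neither gene was called with any drug in these cells.

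KIF18A read 7.38, 7.88 and 7.49 with Nutlin, 7.95, 7.42 and 7.20 with daunorubicin and 7.48, 7.54 and 7.62 with MLN4924, against DMSO log2 signals from 7.73 to 8.21 (median 7.85). KIF20B read 9.20, 8.89 and 9.02 with Nutlin, 9.73, 8.53 and 8.76 with daunorubicin and 9.45, 9.22 and 9.22 with MLN4924, against DMSO log2 signals from 8.92 to 9.34 (median 9.16). Both overlapped the DMSO range with Nutlin, with daunorubicin values on both sides of it for KIF20B. KIF2B stayed dim, at 1.24, 1.79 and 2.49 with Nutlin, 2.03, 2.30 and 2.76 with daunorubicin and 2.13, 1.78 and 1.69 with MLN4924, against DMSO log2 signals from 0.87 to 3.33 (median 1.77).

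The first daunorubicin array of p53 siRNA cells was the highest of its 3 for 10 of the 12 mitotic kinesins, by a median log2 difference of 0.85 from the mean of the other 2. It was also highest for 9 of 15 transport kinesins, with a median of 0.58. Without the 3 doubted libraries 6 mitotic kinesins were lower with daunorubicin: KIF11, KIF14 and KIF20A, with KIF23 at -0.95, KIF2C at -0.73 and KIF4A at -0.70 gained, and KIF22 lost. The non-mitotic genes called then were KIF3A, KIF5B and KIF13A, which were lower, and KIFC2, which was higher, so that 10 kinesins were called in all. Leaving out the centring changes the calls for MLN4924 in p53 siRNA cells. At the deposited scaling 3450 genes were lower and 1054 higher, 8 kinesins were lower and 0 higher, and KIF18B was at 0.21, so the rises of KIF18B, KIF1B, KIF1C, KIF3C and KIF9 there are rises relative to the median gene.

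The difference between the changes in p53 and GL2 siRNA cells was tested directly. For each drug the 12 mitotic kinesins other than KIF2B had a change that was higher, that is less negative, in p53 siRNA cells than in GL2 siRNA cells. The median of these differences of changes over the 13 was 4.09 for Nutlin, 3.39 for daunorubicin and 1.34 for MLN4924, against -0.03, 0.01 and 0.13 over all genes. KIFC1 had the highest value with each drug, at 5.63 ± 0.69 (SE), 4.98 ± 0.69 (SE) and 3.14 ± 0.69 (SE), and KIF22 the lowest with Nutlin and daunorubicin, at 1.81 ± 0.28 (SE) and 1.17 ± 0.28 (SE). Of the 45 kinesins, 16 were higher and 0 lower for Nutlin, where 7.05% of all genes were higher and 6.02% lower. For daunorubicin 19 were higher and 1 lower, where 11.6% of all genes were higher and 7.18% lower. For MLN4924 13 were higher and 1 lower, where 6.96% of all genes were higher and 3.41% lower. Without the 3 doubted libraries the 12 mitotic kinesins were still called for each drug, with medians of 2.86 for daunorubicin and 1.12 for MLN4924. With the mean of all probe sets KIF20B was at 1.07 and not called for Nutlin, and KIF22 was at 1.13 for Nutlin and, not called, 0.65 for daunorubicin. The other probe set of KIF22 changed almost alike with daunorubicin, by -1.33 in GL2 and -1.32 in p53 siRNA cells.

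Outside the mitotic class the change also differed between p53 and GL2 siRNA cells for KIF5C, KIF7, KIF21B and KIF24 with Nutlin and daunorubicin, and for KIF2A, KIF9 and KIF21A with daunorubicin. Without the first daunorubicin array of p53 siRNA cells KIF2A was at 0.36 in place of 0.76 and KIF21A at 0.25 in place of 0.60, and neither was called. The daunorubicin call of KIF21A was also lost without each of 4 other arrays, at 0.50 to 0.59, which were GL2 siRNA daunorubicin replicate 3, GL2 siRNA DMSO first set replicate 2, p53 siRNA DMSO first set replicate 3 and p53 siRNA DMSO second set replicate 2. KIF24 lost its daunorubicin call without p53 siRNA Daunorubicin replicate 1 (1.10). KIF7 lost its Nutlin call with the first DMSO set alone, at 0.59 in place of 1.01, and without GL2 siRNA Nutlin replicate 2 (0.70), and KIF24 with 16 added to each signal, at 0.55 in place of 1.64. The values that ran the other way, lower in p53 than in GL2 siRNA cells, were those of the dim KIF23-AS1 with daunorubicin (-1.15 ± 0.39 (SE)) and of the dim KIF17 with MLN4924 (-2.06 ± 0.64 (SE)). The first of these was not called without GL2 siRNA DMSO first set replicate 3, GL2 siRNA DMSO second set replicate 2, GL2 siRNA Daunorubicin replicate 1 or 2, p53 siRNA DMSO second set replicate 2 or p53 siRNA Daunorubicin replicate 1 (-1.12 to -0.91), nor the second without GL2 siRNA MLN4924 replicate 1, p53 siRNA DMSO second set replicate 2 or p53 siRNA MLN4924 replicate 1, 2 or 3 (-2.09 to -1.02).

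**Figure D3:**
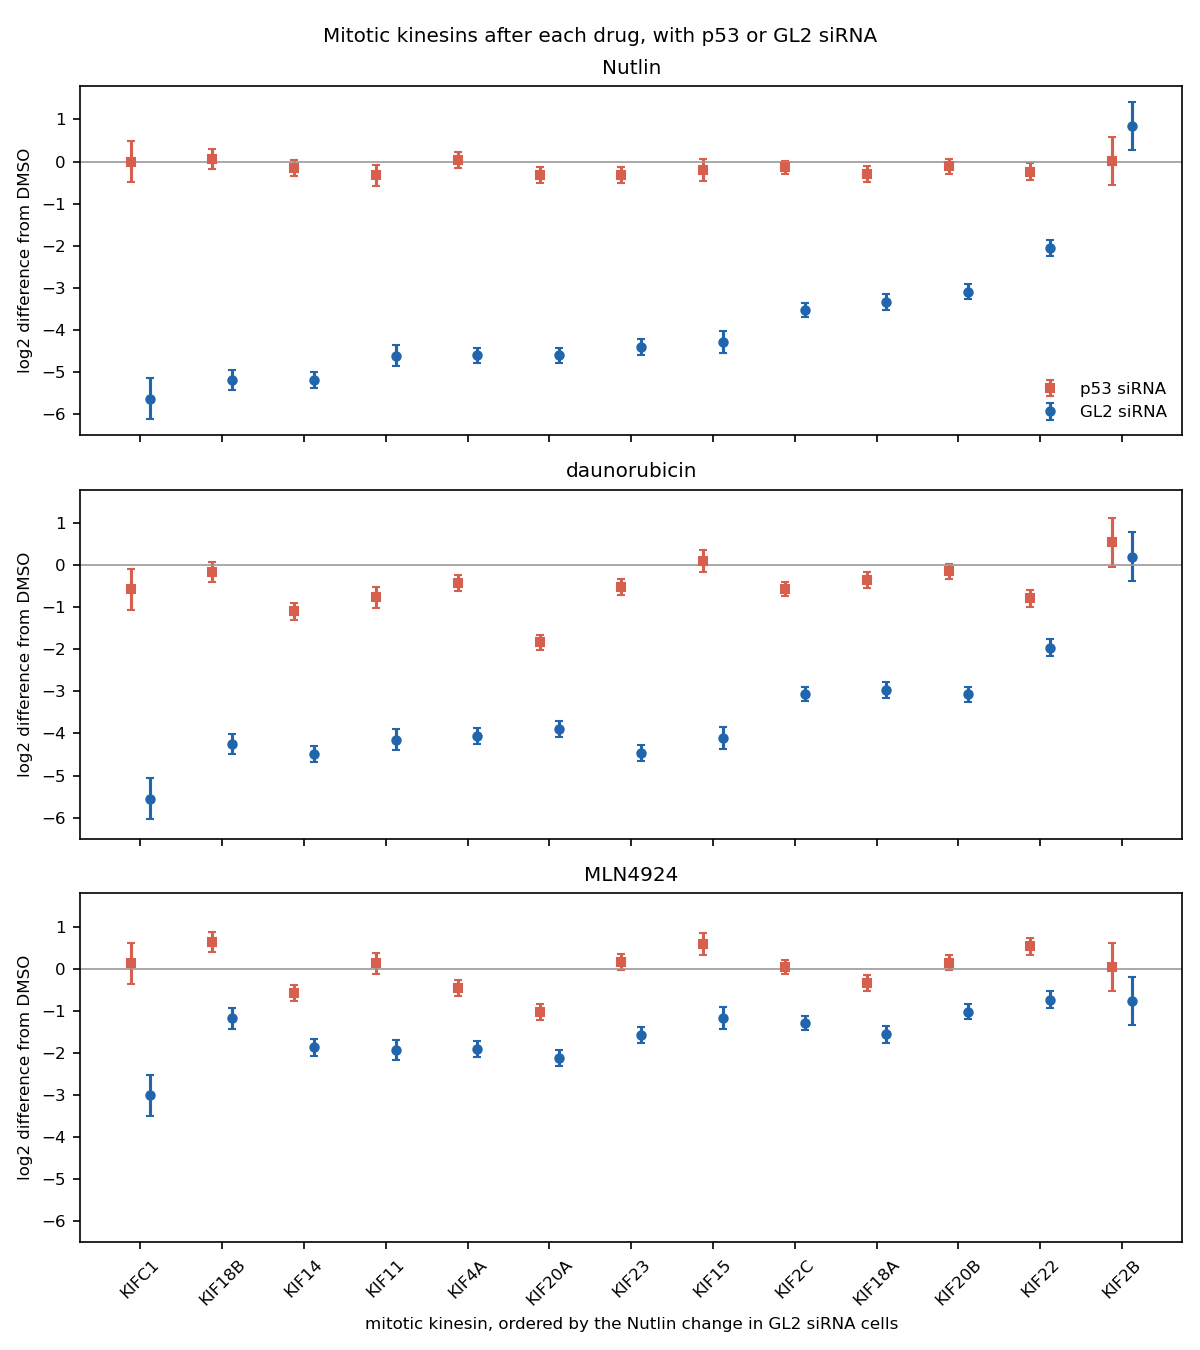
Log2 difference from DMSO, with its standard error, of the 13 mitotic kinesins (horizontal axis, ordered by the Nutlin change in GL2 siRNA cells) for each drug (panels), in p53 siRNA cells (red squares) and GL2 siRNA cells (blue circles). All red squares lie above the blue circles of the same gene for each drug, except that of KIF2B with Nutlin, and with Nutlin they lie between -0.33 and 0.06.

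Without drug, p53 siRNA changed 1 kinesin. KIF20A had DMSO log2 signals from 9.53 to 9.89 (median 9.59) in p53 siRNA cells, against values from 8.87 to 9.09 (median 8.96) in GL2 siRNA cells, and was higher by 0.69 ± 0.15 (SE) (adjusted p = 0.00194), with no overlap. Of all genes 1.71% were higher and 2.27% lower. The other mitotic kinesins had log2 differences between -0.42 for KIF11 and 0.46 for KIF2C, and the median of the 13 was 0.15 against -0.01 over all genes. With the second DMSO set alone 3 kinesins were called.

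Under DMSO, CDT1 siRNA lowered 2 and BRCA1 siRNA lowered 10 of the 13 mitotic kinesins. With BRCA1 siRNA the 13 had log2 differences with a median of -0.77 against -0.05 over all genes, and KIF5C fell and KIFC2 rose among the others, where 4.37% of all genes were lower and 4.11% higher. With CDT1 siRNA KIF15, KIF23, KIF5C, KIF2A and KIF6 fell and KIF13A rose, with 3.58% of all genes lower and 2.72% higher. The mitotic median was -0.50 for CDT1 siRNA, against -0.03 over all genes. The difference between the 2 siRNAs was not tested, and both are set against the same GL2 siRNA DMSO arrays. BRCA1 siRNA also lowered CDT1 itself, with a log2 difference of -0.75. Leaving out 1 array at a time gave 6 to 10 lower mitotic kinesins with BRCA1 siRNA, and 6 without BRCA1 siRNA DMSO replicate 2. The BRCA1 siRNA calls of KIF15, KIF18B, KIF22 and KIF2C were lost without that array, at -0.91, -0.82, -0.55 and -0.58, and that of KIF18A without BRCA1 siRNA DMSO replicate 3 (-0.67). KIF18B was lost without any 1 of the BRCA1 siRNA DMSO arrays, at -0.84 to -0.82, and KIF22 without BRCA1 siRNA DMSO replicate 1, 2 or 3, GL2 siRNA DMSO first set replicate 1 or 2 or GL2 siRNA DMSO second set replicate 1, 2 or 3 (-0.63 to -0.55). For the 12 mitotic kinesins other than KIF2B every BRCA1 siRNA array lay below every GL2 siRNA array. Every CDT1 siRNA array did so for all of the 12 but KIF2C and KIF18A. With BRCA1 siRNA, 5 of 15 transport and 4 of 13 other kinesins also did not overlap the GL2 siRNA arrays, in either direction. With CDT1 siRNA these were 3 of 15 and 3 of 13. The share of all genes without overlap was not computed.

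KIF15 had DMSO log2 signals of 6.50, 6.24 and 6.75 with CDT1 siRNA and 6.96, 6.71 and 6.98 with BRCA1 siRNA, against values from 7.78 to 8.08 (median 7.85) with GL2 siRNA. Its differences were -1.39 ± 0.26 (SE) (adjusted p = 4.30e-04) and -1.0 ± 0.26 (SE) (adjusted p = 0.00806). KIF23 had 7.94, 7.96 and 8.15 with CDT1 siRNA and 8.39, 7.80 and 8.07 with BRCA1 siRNA, against values from 8.80 to 9.10 (median 8.95) with GL2 siRNA. Both siRNAs lay below every GL2 siRNA array, with log2 differences of -0.93 ± 0.19 (SE) and -0.87 ± 0.19 (SE). KIF11 had 9.33, 9.17 and 9.51 with CDT1 siRNA and 8.98, 8.76 and 8.95 with BRCA1 siRNA, against values from 9.90 to 10.11 (median 9.98) with GL2 siRNA, and fell with BRCA1 siRNA, with a log2 difference of -1.09 ± 0.25 (SE). KIFC1 had 7.31, 7.18 and 7.56 with CDT1 siRNA and 7.04, 6.97 and 7.08 with BRCA1 siRNA, against values from 8.02 to 8.29 (median 8.14), and its difference for BRCA1 siRNA, -1.11 ± 0.49 (SE), was the largest of the mitotic kinesins but was not called (adjusted p = 0.137). That standard error rests on an SD of 0.71 within all 14 groups, MLN4924 groups included, against an SD of 0.09 over the GL2 siRNA DMSO arrays.

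KIF20A read 8.33, 8.55 and 8.56 with CDT1 siRNA and 8.08, 8.10 and 8.42 with BRCA1 siRNA under DMSO, and KIF14 read 9.43, 9.30 and 9.50 with CDT1 siRNA and 9.17, 9.15 and 9.10 with BRCA1 siRNA. KIF18A read 7.68, 7.42 and 7.60 with CDT1 siRNA and 7.05, 7.20 and 6.95 with BRCA1 siRNA, and KIF18B read 9.69, 9.51 and 9.67 with CDT1 siRNA and 9.33, 9.28 and 9.31 with BRCA1 siRNA. These 4 passed the test with BRCA1 siRNA and not with CDT1 siRNA, against the GL2 siRNA arrays given above, with log2 differences for BRCA1 siRNA of -0.77, -0.77, -0.73 and -0.83. KIF2C read 9.46, 9.41 and 9.45 with CDT1 siRNA and 9.0, 8.66 and 8.94 with BRCA1 siRNA, and KIF4A read 8.64, 8.79 and 8.77 with CDT1 siRNA and 8.56, 8.24 and 8.39 with BRCA1 siRNA. KIF22 read 7.26, 7.0 and 7.29 with CDT1 siRNA and 7.10, 6.94 and 7.07 with BRCA1 siRNA, and KIF20B read 8.44, 8.45 and 8.61 with CDT1 siRNA and 8.52, 8.52 and 8.47 with BRCA1 siRNA. Of these, KIF2C, KIF4A and KIF22 fell with BRCA1 siRNA, with log2 differences of -0.68, -0.75 and -0.60, and KIF20B at -0.50 did not pass. KIF2B read 0.23, 1.38 and 2.60 with CDT1 siRNA and 1.56, 1.64 and 1.36 with BRCA1 siRNA, under the dim level.

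MLN4924 lowered mitotic kinesins in CDT1 siRNA cells and in BRCA1 siRNA cells too. In CDT1 siRNA cells 8 of 13 fell, with a median of -0.76 against 0.10 over all genes, and KIF1C, KIF7 and KIF21A rose, where 4.63% of all genes were lower and 5.93% higher. In BRCA1 siRNA cells 9 of 13 fell, with a median of -0.92 against 0.16 over all genes. There KIF6, KIF16B and KIFC2 also fell and KIF1C, KIF3C, KIF9 and KIF21A rose, where 7.15% of all genes were lower and 9.79% higher. Without the library labelled BRCA1 siRNA MLN4924 replicate 3 and the other 2 doubted libraries, 11 mitotic kinesins fell in BRCA1 siRNA cells, with a median of -1.18, and 11 in GL2 siRNA cells, with a median of -1.44. For the 12 mitotic kinesins other than KIF2B no MLN4924 array of CDT1 siRNA cells overlapped the DMSO arrays. In BRCA1 siRNA cells KIF15, KIF18B and KIF22 overlapped them. Of the transport kinesins, 7 of 15 in CDT1 and 8 of 15 in BRCA1 siRNA cells also did not overlap, in either direction. Of the other kinesins, 5 of 13 and 4 of 13 did not. These groups hold 3 arrays each, and the share of all genes without overlap was not computed.

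KIFC1 had the lowest difference in both. Its log2 signals with MLN4924 were 5.30, 5.63 and 3.86 in CDT1 siRNA cells, against 7.31, 7.18 and 7.56 with DMSO, and 3.59, 4.08 and 6.43 in BRCA1 siRNA cells, against 7.04, 6.97 and 7.08 with DMSO. The third array stands apart in each MLN4924 group, lower with CDT1 siRNA and higher with BRCA1 siRNA. With all arrays, the third included, the differences were -2.42 ± 0.56 (SE) (adjusted p = 0.00262) and -2.33 ± 0.56 (SE) (adjusted p = 0.00225). KIF20A read 6.98, 7.26 and 7.04 with MLN4924 in CDT1 siRNA cells, against 8.33, 8.55 and 8.56 with DMSO, and 6.34, 6.18 and 6.95 in BRCA1 siRNA cells, against 8.08, 8.10 and 8.42 with DMSO. It fell in both, with log2 differences of -1.39 ± 0.21 (SE) and -1.71 ± 0.21 (SE). KIF18B read 9.12, 9.10 and 9.15 in CDT1 siRNA cells, against 9.69, 9.51 and 9.67 with DMSO, and 8.19, 8.06 and 9.48 in BRCA1 siRNA cells, against 9.33, 9.28 and 9.31 with DMSO. Its BRCA1 siRNA difference was -0.73, -1.18 without the library labelled replicate 3 and, no longer called, -0.47 without replicate 2. That call was lost without BRCA1 siRNA DMSO replicate 1, 2 or 3 or BRCA1 siRNA MLN4924 replicate 1 or 2 (-0.74 to -0.47).

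KIF11 read 8.10, 8.29 and 8.11 with MLN4924 in CDT1 siRNA cells and 7.36, 7.34 and 8.52 in BRCA1 siRNA cells, and KIF14 read 8.14, 8.22 and 7.92 with CDT1 siRNA and 7.90, 7.54 and 8.40 with BRCA1 siRNA. KIF18A read 7.13, 6.82 and 6.46 with CDT1 siRNA and 5.43, 5.42 and 6.47 with BRCA1 siRNA, and KIF4A read 7.60, 7.61 and 7.68 with CDT1 siRNA and 7.13, 7.12 and 7.77 with BRCA1 siRNA. All 4 fell against the DMSO arrays of their siRNA given above, with log2 differences in CDT1 and BRCA1 siRNA cells of -1.32 and -1.19 for KIF14 and -0.76 and -1.29 for KIF18A. The CDT1 siRNA call of KIF18A was lost without CDT1 siRNA DMSO replicate 1 or 3 or CDT1 siRNA MLN4924 replicate 3 (-0.75 to -0.59). KIF2C read 8.28, 8.41 and 8.18 with CDT1 siRNA and 7.70, 7.91 and 8.45 with BRCA1 siRNA, and KIF23 read 7.20, 7.68 and 7.33 with CDT1 siRNA and 7.06, 6.98 and 7.44 with BRCA1 siRNA. KIF15 read 6.03, 5.81 and 6.20 with CDT1 siRNA and 6.11, 6.18 and 7.17 with BRCA1 siRNA, and KIF22 read 6.49, 6.94 and 6.87 with CDT1 siRNA and 6.52, 6.55 and 7.18 with BRCA1 siRNA. KIF2C fell in both, KIF23 was called in BRCA1 siRNA cells, and KIF15 and KIF22 were not called in either. KIF20B read 7.88, 7.90 and 7.72 with CDT1 siRNA and 7.82, 7.71 and 8.24 with BRCA1 siRNA and was called in CDT1 siRNA cells, but not without CDT1 siRNA DMSO replicate 3 or CDT1 siRNA MLN4924 replicate 3 (-0.61). KIF2B read 1.75, 0.16 and 2.72 with CDT1 siRNA and 0.74, 1.75 and 0.02 with BRCA1 siRNA, under the dim level.

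The MLN4924 change was compared directly between siRNAs. Between CDT1 and GL2 siRNA cells 0 kinesins differed by limma, where 0.521% of all genes were higher and 0.698% lower, although 12 kinesins passed an unadjusted p of 0.05 and other settings called 0 to 3. The mitotic median of the difference of changes was 0.69 against -0.02 over all genes, and 0.34 without the 3 doubted libraries, when KIF16B (0.66), KIF17 (-2.55) and KIF23 (0.82) were called. Between BRCA1 and GL2 siRNA cells 0 kinesins differed, where 0.632% of all genes were higher and 1.23% lower, with 6 at an unadjusted p of 0.05 and 0 to 1 in other settings. Its mitotic median was 0.46 against 0.04 over all genes, and 0.03 without the doubted libraries, when the dim KIF17 (-2.32) was called. The library labelled GL2 siRNA MLN4924 replicate 3 was the lowest of its 3 arrays for 12 of 12 mitotic kinesins, with a median log2 difference of -0.71 from the mean of the other 2. The library labelled BRCA1 siRNA MLN4924 replicate 3 was the highest of its 3 for 12 of 12, by a median of 0.68.

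**Figure D4:**
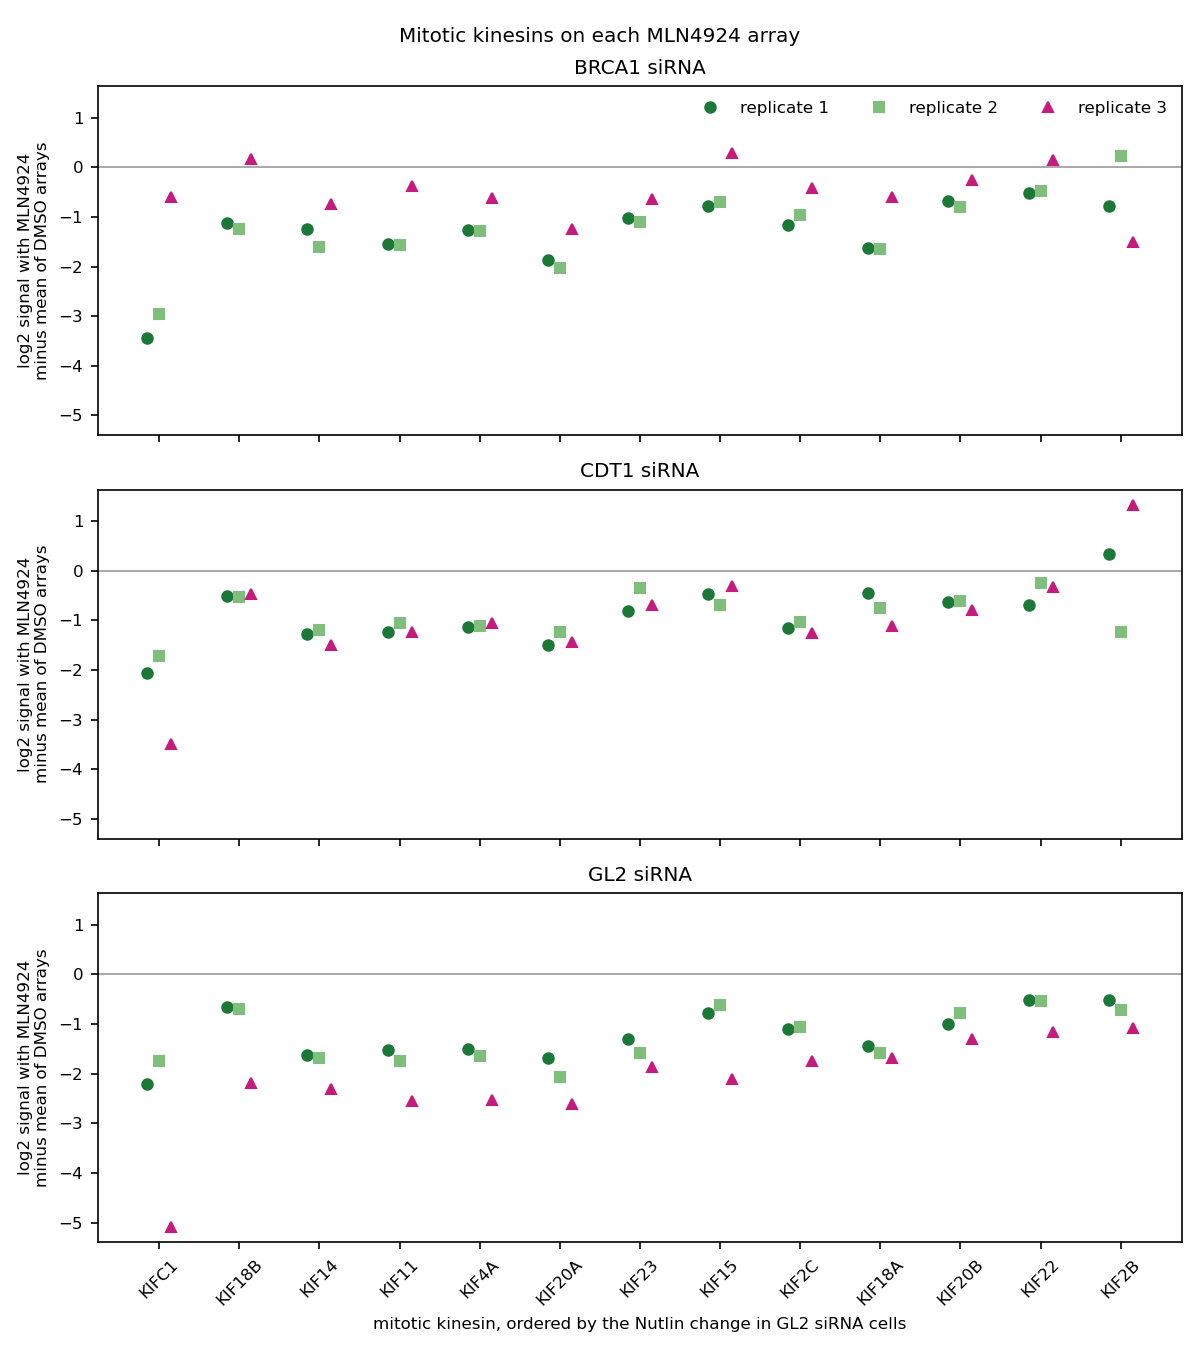
Log2 signal of the 13 mitotic kinesins (horizontal axis) on each MLN4924 array minus the mean of the DMSO arrays of the same siRNA (vertical axis), for BRCA1, CDT1 and GL2 siRNA cells (panels), with a symbol for each replicate. Replicate 3 is the highest array in the BRCA1 siRNA panel and the lowest in the GL2 siRNA panel for all mitotic kinesins other than KIF2B.

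Transport kinesins had no shared direction. Over the 15, the median log2 difference in GL2 siRNA cells was 0.17 with Nutlin, 0.05 with daunorubicin and 0.12 with MLN4924, against 0.02, 0.00 and 0.08 over all genes. Nutlin lowered KIF5C and KIF16B and raised KIFC2, daunorubicin lowered KIF5C and raised KIFC2, and MLN4924 lowered KIF16B and raised KIF1C, KIF3A and KIF17. Of all genes, Nutlin lowered 10.8% and raised 7.91%, daunorubicin lowered 11.4% and raised 7.73%, and MLN4924 lowered 7.06% and raised 10.2%. The transport counts were not tested against these shares. The range of a gene's 14 group means had a median of 1.10 over the transport kinesins, against 4.80 over the mitotic and 1.80 over the other kinesins.

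KIF5C, a kinesin-1 heavy chain best known from neurons, had log2 signals of 6.23, 5.94 and 6.09 with Nutlin, 6.59, 6.65 and 6.31 with daunorubicin and 7.26, 7.36 and 6.14 with MLN4924 in GL2 siRNA cells, against DMSO values from 7.26 to 7.49 (median 7.32). Nutlin and daunorubicin arrays lay below all DMSO arrays, with log2 differences of -1.25 ± 0.21 (SE) (adjusted p = 1.87e-05) and -0.83 ± 0.21 (SE) (adjusted p = 0.00248). With p53 siRNA it had 7.44, 7.25 and 6.99 with Nutlin, 8.16, 7.46 and 7.10 with daunorubicin and 7.60, 7.64 and 7.69 with MLN4924, against DMSO values from 7.01 to 7.24 (median 7.14). The change was higher in p53 than in GL2 siRNA cells for each drug, by 1.36, 1.28 and 0.95, the last being 0.56 and not called without the 3 doubted libraries. The last call was lost without the library labelled GL2 siRNA MLN4924 replicate 3 or p53 siRNA MLN4924 replicate 1, 2 or 3 (0.56 to 0.97). In CDT1 siRNA cells it had 6.71, 6.86 and 6.71 with MLN4924, against 6.65, 6.44 and 6.81 with DMSO. In BRCA1 siRNA cells it had 6.33, 6.41 and 7.33 with MLN4924, against 6.35, 6.29 and 6.18 with DMSO. Both siRNAs alone lowered it, with log2 differences of -0.71 ± 0.21 (SE) and -1.07 ± 0.21 (SE), the first call being lost without CDT1 siRNA DMSO replicate 1 or 2 (-0.72 to -0.61).

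KIFC2, a minus-end motor of the KIFC group, moved the other way. Its log2 signals in GL2 siRNA cells were 7.71, 7.69 and 7.72 with Nutlin, 7.54, 7.55 and 7.31 with daunorubicin and 6.27, 6.09 and 6.63 with MLN4924, against DMSO values from 6.30 to 6.86 (median 6.77). It rose by 1.04 ± 0.18 (SE) with Nutlin (adjusted p = 3.95e-05) and 0.80 ± 0.18 (SE) with daunorubicin (adjusted p = 9.25e-04), without overlap. The p53 siRNA cells gave values of 6.92, 6.76 and 6.90 with Nutlin, 6.26, 6.82 and 7.10 with daunorubicin and 6.25, 5.68 and 5.24 with MLN4924, against DMSO values from 6.15 to 6.58 (median 6.23). With CDT1 siRNA they were 6.63, 6.67 and 7.04 with MLN4924, against 6.73, 6.67 and 6.62 with DMSO. With BRCA1 siRNA they were 6.41, 6.97 and 6.11 with MLN4924, against 7.53, 7.34 and 7.27 with DMSO. BRCA1 siRNA alone raised KIFC2 by 0.71 ± 0.18 (SE), a call lost without BRCA1 siRNA DMSO replicate 1 (0.64), and MLN4924 lowered it in the same cells, with a log2 difference of -0.88 ± 0.21 (SE). KIFC2 also had the lowest median correlation with the mitotic kinesins over the 14 group means, at -0.69.

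KIF1C, which carries vesicles and some RNAs, rose with MLN4924 with every siRNA. Its log2 signals with MLN4924 were 9.32, 9.14 and 8.54 in GL2 siRNA cells, against DMSO values from 7.77 to 8.32 (median 8.15). They were 8.75, 8.75 and 8.74 in p53 siRNA cells, against values from 7.51 to 8.16 (median 7.83). They were 8.17, 8.53 and 8.48 in CDT1 siRNA cells, against 7.52, 7.74 and 7.70 with DMSO, and 8.61, 8.60 and 9.09 in BRCA1 siRNA cells, against 8.09, 7.62 and 7.77 with DMSO. The log2 differences were 0.89, 0.93, 0.74 and 0.94, with adjusted p of 1.27e-04, 4.27e-05, 0.00802 and 4.75e-04, and the groups did not overlap. In p53 siRNA cells KIF1C had 7.58, 7.79 and 7.95 with Nutlin and 8.62, 7.74 and 7.72 with daunorubicin, and in GL2 siRNA cells 8.57, 8.54 and 8.48 with Nutlin and 7.94, 7.96 and 7.63 with daunorubicin. For MLN4924 the other probe sets of KIF1C stood at -0.16 to 0.11 in GL2 siRNA cells, where they differ in sign, and at 0.04 to 0.78 in p53 siRNA cells, and the mean of all of them gave 0.29 in GL2 siRNA cells and 0.57 in p53 siRNA cells, neither called.

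KIF16B, which moves early endosomes, fell with MLN4924 in 3 of the 4 siRNA backgrounds. Its log2 signals in GL2 siRNA cells were 6.08, 6.28 and 6.30 with Nutlin, 6.74, 6.56 and 6.36 with daunorubicin and 6.29, 6.04 and 6.38 with MLN4924, against DMSO values from 6.43 to 7.13 (median 6.92). With p53 siRNA they were 5.88, 5.94 and 6.28 with Nutlin, 7.05, 5.86 and 6.21 with daunorubicin and 5.69, 5.98 and 5.75 with MLN4924, against values from 6.17 to 6.60 (median 6.47). The first DMSO set of GL2 siRNA cells, 6.78, 6.78 and 6.43, lay below the second, 7.12, 7.06 and 7.13, and with the first set alone the MLN4924 difference was -0.43 in place of -0.65 and not called. In CDT1 siRNA cells KIF16B had 6.37, 6.54 and 6.27 with MLN4924, against 6.35, 6.59 and 6.44 with DMSO, and in BRCA1 siRNA cells 6.56, 6.70 and 6.41, against 7.26, 7.20 and 7.13 with DMSO. Nutlin and MLN4924 arrays of GL2 siRNA cells lay below all DMSO arrays, and daunorubicin arrays overlapped them. Its other probe set had MLN4924 differences of -0.16 in p53 and -0.50 in GL2 siRNA cells, of the same sign, and was near 0 with Nutlin in GL2 siRNA cells. The mean of both gave no call for Nutlin in GL2 siRNA cells, at -0.34, or MLN4924 in p53 siRNA cells, at -0.41. The MLN4924 calls of KIF16B were also lost in GL2 siRNA cells without GL2 siRNA MLN4924 replicate 2 (-0.55), in p53 siRNA cells without p53 siRNA MLN4924 replicate 1 (-0.58) and in BRCA1 siRNA cells without the library labelled BRCA1 siRNA MLN4924 replicate 3 (-0.56).

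The remaining transport kinesins changed in few comparisons. KIF1B, a carrier of mitochondria and vesicles, rose with MLN4924 in p53 siRNA cells (0.72 ± 0.11 (SE)), and KIF3C, a partner of KIF3A, rose with MLN4924 in p53 and BRCA1 siRNA cells (0.68 and 0.62). The calls of KIF3C were lost in p53 siRNA cells without p53 siRNA MLN4924 replicate 1 (0.53) and in BRCA1 siRNA cells without BRCA1 siRNA DMSO replicate 2 or 3 or BRCA1 siRNA MLN4924 replicate 1 (0.51 to 0.58). KIF3A, the kinesin-2 motor of cilia, rose with MLN4924 in GL2 siRNA cells (0.72 ± 0.17 (SE)), and KIF13A, which moves recycling endosomes, rose with CDT1 siRNA (0.66 ± 0.16 (SE)), a call lost with the mean of all its probe sets (0.31). KIF17 was called higher with MLN4924 in GL2 siRNA cells at log2 signals of 4.96, 2.58 and 1.14, against DMSO values from 0.53 to 1.21 (median 0.63). All these values of KIF17 lie under the dim level, the groups overlap, and without replicate 1 the difference was 1.08 in place of 2.12. KIF3B (a partner of KIF3A), KIF5A and KIF5B (kinesin-1 heavy chains), KIF13B, KIFC3 and the dim KIF1A were called in none of the 18 comparisons. KIF5B, whose promoter is printed above, had log2 differences of -0.44, -0.44 and -0.27 with Nutlin, daunorubicin and MLN4924 in GL2 siRNA cells.

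Some other kinesins followed the mitotic ones. KIF21B, which regulates microtubule growth in neurons and lymphocytes, had log2 signals of 3.15, 4.32 and 2.73 with Nutlin, 5.04, 3.62 and 2.55 with daunorubicin and 5.98, 5.58 and 2.90 with MLN4924 in GL2 siRNA cells, against DMSO values from 6.14 to 6.74 (median 6.42). It fell in all 3, with log2 differences of -3.05 ± 0.49 (SE) with Nutlin (adjusted p = 9.64e-06), -2.72 ± 0.49 (SE) with daunorubicin and -1.64 ± 0.49 (SE) with MLN4924, the last going to -0.68, not called, without the library labelled GL2 siRNA MLN4924 replicate 3. With p53 siRNA its values were 6.61, 6.94 and 6.79 with Nutlin, 7.0, 6.53 and 6.60 with daunorubicin and 6.40, 6.22 and 6.45 with MLN4924, against DMSO values from 5.32 to 6.66 (median 6.48), with no drug called. With 16 added to each signal the Nutlin and MLN4924 differences in GL2 siRNA cells were -1.99 and -1.05. With CDT1 siRNA it had 5.04, 5.41 and 5.94 with MLN4924, against 5.14, 5.61 and 5.38 with DMSO, and with BRCA1 siRNA 4.90, 4.48 and 6.11, against 5.96, 5.14 and 4.68 with DMSO. The changes with Nutlin and daunorubicin were higher in p53 than in GL2 siRNA cells, by 3.66 ± 0.69 (SE) and 3.25 ± 0.69 (SE).

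KIF24, which acts at centrioles and holds back cilia, had log2 signals of 1.86, 1.74 and 2.21 with Nutlin, 2.68, 2.35 and 2.42 with daunorubicin and 3.22, 3.32 and 3.41 with MLN4924 in GL2 siRNA cells, against DMSO values from 3.0 to 4.18 (median 3.65). It fell with Nutlin (-1.70 ± 0.31 (SE)) and daunorubicin (-1.15 ± 0.31 (SE)) without overlap, all at dim levels, and with 16 added to each signal the differences were -0.63 and, not called, -0.53. Its p53 siRNA arrays read 3.44, 3.92 and 3.92 with Nutlin, 5.27, 3.35 and 4.18 with daunorubicin and 3.58, 4.57 and 4.63 with MLN4924, against values from 3.10 to 4.36 (median 3.84). In CDT1 siRNA cells it had 3.07, 2.75 and 3.28 with MLN4924, against 2.71, 3.49 and 3.74 with DMSO, and in BRCA1 siRNA cells 3.58, 3.51 and 3.36, against 3.09, 3.11 and 2.70 with DMSO.

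KIF2A, a microtubule shortener of neurons that also acts at spindle poles, had log2 signals of 8.68, 8.78 and 8.72 with Nutlin, 8.72, 8.69 and 8.59 with daunorubicin and 9.58, 9.51 and 9.18 with MLN4924 in GL2 siRNA cells, against DMSO values from 9.35 to 9.65 (median 9.51). Nutlin and daunorubicin lowered it without overlap, with log2 differences of -0.79 ± 0.16 (SE) and -0.86 ± 0.16 (SE). For p53 siRNA cells the values were 9.25, 9.43 and 9.35 with Nutlin, 10.30, 9.15 and 9.03 with daunorubicin and 10.01, 9.89 and 10.01 with MLN4924, against values from 9.46 to 9.80 (median 9.56). CDT1 siRNA cells had 8.77, 8.93 and 8.76 with MLN4924, against 8.43, 8.21 and 8.48 with DMSO, and CDT1 siRNA alone lowered it, with a log2 difference of -1.15 ± 0.16 (SE). BRCA1 siRNA cells had 9.21, 9.04 and 9.50 with MLN4924, against 9.05, 8.82 and 9.08 with DMSO.

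KIF7, which acts in hedgehog signalling at the tip of cilia, had log2 signals of 5.76, 4.84 and 5.79 with Nutlin, 4.77, 5.05 and 4.37 with daunorubicin and 7.27, 6.91 and 6.13 with MLN4924 in GL2 siRNA cells, against DMSO values from 5.99 to 6.61 (median 6.10). It fell with Nutlin (-0.78 ± 0.21 (SE)) and daunorubicin (-1.51 ± 0.21 (SE)) without overlap, and the Nutlin call was lost without Nutlin replicate 2, at -0.46. With p53 siRNA KIF7 had 6.18, 6.25 and 6.19 with Nutlin, 6.39, 6.09 and 6.05 with daunorubicin and 6.55, 6.18 and 6.09 with MLN4924, against values from 5.56 to 6.36 (median 6.03). With MLN4924 it rose in CDT1 siRNA cells, at 6.80, 6.72 and 6.74 against 5.67, 5.88 and 5.77 with DMSO (0.98 ± 0.24 (SE)), while BRCA1 siRNA cells had 6.30, 6.69 and 6.70 against 6.37, 5.86 and 5.97 with DMSO.

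KIF9, a motor of motile cilia, had log2 signals of 8.64, 8.56 and 8.50 with Nutlin, 8.41, 8.53 and 8.29 with daunorubicin and 9.56, 9.55 and 9.51 with MLN4924 in GL2 siRNA cells, against DMSO values from 8.85 to 9.18 (median 8.97). With p53 siRNA it had 8.70, 8.53 and 8.54 with Nutlin, 9.75, 8.99 and 9.07 with daunorubicin and 9.28, 9.37 and 9.56 with MLN4924, against values from 8.67 to 9.03 (median 8.76). CDT1 siRNA cells had 9.20, 9.52 and 9.37 with MLN4924, against 8.89, 8.97 and 8.85 with DMSO, and BRCA1 siRNA cells 9.47, 9.54 and 9.44, against 8.68, 8.69 and 8.55 with DMSO. It fell with daunorubicin in GL2 siRNA cells (-0.60) and rose with MLN4924 in p53 and BRCA1 siRNA cells (0.59 and 0.85), without overlap. Its daunorubicin call was lost without GL2 siRNA DMSO first set replicate 3, GL2 siRNA DMSO second set replicate 1 or 3 or GL2 siRNA Daunorubicin replicate 3 (-0.58 to -0.54), and its MLN4924 call in p53 siRNA cells without p53 siRNA DMSO second set replicate 2 or p53 siRNA MLN4924 replicate 3 (0.52 to 0.56). Its probe set is of a kind that may also bind other transcripts. With the mean of all its probe sets the daunorubicin difference turned to 0.0150 and the MLN4924 difference in BRCA1 siRNA cells was 0.19, neither called, and at the deposited scaling the daunorubicin difference was -0.39, not called.

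KIF21A, a relative of KIF21B, had log2 signals of 8.68, 8.75 and 8.64 with Nutlin, 8.40, 8.41 and 8.12 with daunorubicin and 9.10, 9.05 and 8.75 with MLN4924 in GL2 siRNA cells, against DMSO values from 8.21 to 8.43 (median 8.30). The p53 siRNA arrays read 8.58, 8.25 and 8.26 with Nutlin, 9.58, 8.53 and 8.55 with daunorubicin and 8.82, 8.82 and 8.93 with MLN4924, against values from 8.02 to 8.41 (median 8.34), and the daunorubicin difference was 0.59 with all arrays and 0.25, not called, without the array with the low actin ratio. That call was lost without p53 siRNA DMSO first set replicate 3, p53 siRNA DMSO second set replicate 2 or p53 siRNA Daunorubicin replicate 1 (0.25 to 0.58). In CDT1 siRNA cells it had 9.05, 9.16 and 9.05 with MLN4924, against 8.34, 8.17 and 8.41 with DMSO, and in BRCA1 siRNA cells 8.71, 8.90 and 9.11, against 8.41, 8.31 and 8.13 with DMSO. It rose with MLN4924 in GL2, CDT1 and BRCA1 siRNA cells, by 0.65, 0.78 and 0.62 on the log2 scale, but the mean of all its probe sets gave 0.42 and 0.50 in GL2 and CDT1 siRNA cells, neither called. The MLN4924 calls of KIF21A were lost in GL2 siRNA cells without GL2 siRNA MLN4924 replicate 1 (0.58) and in BRCA1 siRNA cells without BRCA1 siRNA DMSO replicate 3 or the library labelled BRCA1 siRNA MLN4924 replicate 3 (0.52 to 0.55).

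Of the remaining other kinesins, KIF6, a ciliary kinesin, fell with CDT1 siRNA (-0.60, and not called at -0.38 with the second DMSO set alone or -0.08 with the mean of all probe sets) and with MLN4924 in BRCA1 siRNA cells (-0.68). Its CDT1 siRNA call was lost without CDT1 siRNA DMSO replicate 1 or 2, GL2 siRNA DMSO first set replicate 3 or GL2 siRNA DMSO second set replicate 1 (-0.56 to -0.47), and its MLN4924 call without BRCA1 siRNA MLN4924 replicate 2 (-0.53). KIF12 and KIF19, the second of which sets cilium length, rose with Nutlin in GL2 siRNA cells (1.60 ± 0.49 (SE) and 1.63 ± 0.60 (SE)). Their Nutlin arrays read 4.73, 5.52 and 4.96 for KIF12 and 5.63, 5.54 and 5.54 for KIF19, against DMSO log2 signals from 2.42 to 4.46 (median 3.50) and from 2.99 to 5.03 (median 3.97), near or under the dim level, and with 16 added to each signal the differences were 0.81 and 0.97. KIF12 was not called with the first DMSO set alone (1.50) or without Nutlin replicate 2 (1.38), nor KIF19 with the mean of all its probe sets (0.91) or without GL2 siRNA DMSO first set replicate 1 or 3, GL2 siRNA DMSO second set replicate 2 or GL2 siRNA Nutlin replicate 1, 2 or 3 (1.45 to 1.65). KIF25 fell with MLN4924 in GL2 siRNA cells (-1.82 ± 0.35 (SE)), where its arrays read 2.92, 2.88 and 3.04, against DMSO log2 signals from 4.17 to 5.22 (median 4.74), its other probe set stood at 0.07, and the difference was -0.86 with the mean of both and -0.78 with 16 added. KIF26A and KIF26B (atypical kinesins) and KIF27 (of motile cilia) were called in none. Among the antisense RNAs, KIF23-AS1 was called with daunorubicin in GL2 siRNA cells (0.91 ± 0.27 (SE), adjusted p = 0.0107), at levels below the dim level and not with 16 added (0.37), and KIF1C-AS1, KIF9-AS1 and KIF25-AS1 in none. In all, 32 of the 45 kinesins (71.1%) were called in at least 1 of the 18 comparisons and 13 in none, where 58.3% of all genes were called in at least 1, with KIF20A called most often, in 13, followed by KIF14 in 12 and KIF11 in 11.

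Most genes of proteins that work with mitotic kinesins fell with the drugs in GL2 siRNA cells. The list of these partners includes CENPE, itself a kinesin whose symbol does not start with KIF. Of 18 such partners measured (of 20 listed, without CIT and ARHGEF2), 15 fell with Nutlin and 15 with daunorubicin in GL2 siRNA cells, with medians of -4.08 and -3.87. MLN4924 lowered 14, with a median of -1.45. Of all genes 10.8% were lower with Nutlin, 11.4% with daunorubicin and 7.06% with MLN4924 in GL2 siRNA cells, with medians of 0.02, 0.00 and 0.08. In p53 siRNA cells 0 partners fell with Nutlin (median -0.24), 13 with daunorubicin (median -1.08) and 5 with MLN4924, while 2 rose with MLN4924. Of all genes 0.733% were lower with Nutlin, 7.38% with daunorubicin and 7.60% with MLN4924 in these cells, and 17.8% were higher with MLN4924. The 4 partners named next were picked for the largest statistic with Nutlin in GL2 siRNA cells, so their values do not stand for the list. Nutlin in GL2 siRNA cells gave log2 differences of -3.61 ± 0.11 (SE) for AURKA, a spindle pole kinase, -6.08 ± 0.20 (SE) for CDCA8, a chromosomal passenger, -5.55 ± 0.18 (SE) for HMMR, a spindle protein, and -6.25 ± 0.21 (SE) for DLGAP5, which stabilises spindle microtubules. With daunorubicin in p53 siRNA cells AURKA was at -1.70, HMMR at -1.98, DLGAP5 at -1.32 and CDCA8 at -1.05, all called. The share of partners that fell with daunorubicin in p53 siRNA cells, 13 of 18, and of mitotic kinesins, 4 of 13, were not tested against each other.

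Of 18 partners of transport kinesins measured, 2 fell and 3 rose with Nutlin in GL2 siRNA cells, where 10.8% of all genes were lower and 7.91% higher, with a median of 0.17 against 0.02 over all genes. With daunorubicin 1 fell and 2 rose, where 11.4% of all genes were lower and 7.73% higher. With MLN4924 0 fell and 1 rose, where 7.06% of all genes were lower and 10.2% higher. KIFBP, which blocks some kinesins, fell with Nutlin (-0.96 ± 0.15 (SE)), TRAK1, a mitochondrial adaptor, rose (0.82 ± 0.19 (SE)), DYNC1H1, the dynein heavy chain, rose (0.65 ± 0.16 (SE)), and MAPK8IP1, a kinesin-1 adaptor, fell (-1.31 ± 0.35 (SE)) from dim and overlapping levels.

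Over the 14 group means the mitotic kinesins ran together. Across 66 pairs of the 12 without KIF2B, Pearson's r had a median of 0.97 and ran from 0.90 to 1.0, while 105 pairs of transport kinesins had a median of 0.07 and 180 pairs of a mitotic with a transport kinesin a median of -0.15. The non-mitotic kinesins most like them, by the median r with the mitotic kinesins, were KIF21B (0.92), KIF24 (0.86), KIF5C (0.75) and KIF2A (0.62). These correlations are descriptions over groups that share arrays, cell line and drugs, and carry no test.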

How the data were processed

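The deposited values are linear signal intensities of Affymetrix U133 Plus 2 arrays, made by the authors with Expression Console, per the submitters' processing notes, whose version is not given in the sources used here. From the values, every array had a 2%-trimmed mean of 150.02. Of 54675 probe sets, 41091 had a single symbol in the platform annotation, giving 19775 genes, and a gene was read by whichever of its probe sets had the highest mean log2 signal. The 147 zeros were raised to 0.1, and log2 values were centred on each array's median gene (5.63 to 6.35).

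Differences were tested with limma 3.58.1 over the 14 groups, with Benjamini-Hochberg adjustment. The same fit was run on simulated arrays with independent values and known changes in a single group. That setting is simpler than these arrays and does not check the calls given here. Array number limits the precision. All mitotic kinesins, and other kinesins called in at least 2 drug comparisons in GL2 or p53 siRNA cells, are given for every array, with the 4 partners of each list that had the largest statistic for Nutlin, and check genes. Other kinesins are given by ranges and counts. The members and lists were chosen with earlier results of these data known. Alternatives covered scaling, pseudocount, probe sets, controls, doubted libraries and the fit. Protein sequences were not used here.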

Additional observations from a re-analysis of the deposited data

Results flagged for a closer look

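The results here are those in which the change with a drug differed between p53 siRNA cells and GL2 siRNA cells by the test of the difference itself, at an adjusted p under 0.05 from limma over all genes and at least 1.5-fold. Each value is the log2 change against DMSO in p53 siRNA cells minus that in GL2 siRNA cells, each change a mean of 3 drug arrays against 6 DMSO arrays. No group of kinesin values was tested for a single outlying array, since each group holds 3 arrays.

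For Nutlin the difference among the mitotic kinesins was 5.63 for KIFC1, 5.26 for KIF18B, 5.04 for KIF14, 4.65 for KIF4A, 4.28 for KIF11, 4.28 for KIF20A, 4.09 for KIF23, 4.08 for KIF15, 3.38 for KIF2C, 3.04 for KIF18A, 2.97 for KIF20B and 1.81 for KIF22. Among the remaining genes it was 3.66 for KIF21B, 1.64 for KIF24, 1.36 for KIF5C and 1.01 for KIF7. KIFC1 and KIF18B stand highest and KIF22 lowest among the mitotic genes, and KIF21B is highest among the others. The other probe sets of KIF20B changed by -0.605 to 0.03 in GL2 and -0.62 to 0.17 in p53 siRNA cells. That of KIF22 changed by -1.37 and -0.99. Those of KIF14, KIF23 and KIF2C fell more in GL2 than in p53 siRNA cells.

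For daunorubicin the difference among the mitotic kinesins was 4.98 for KIFC1, 4.21 for KIF15, 4.09 for KIF18B, 3.93 for KIF23, 3.64 for KIF4A, 3.40 for KIF14, 3.39 for KIF11, 2.92 for KIF20B, 2.61 for KIF18A, 2.50 for KIF2C, 2.05 for KIF20A and 1.17 for KIF22. Among the remaining genes it was 3.25 for KIF21B, 1.72 for KIF7, 1.60 for KIF24, 1.28 for KIF5C, 1.06 for KIF9, 0.76 for KIF2A, 0.60 for KIF21A and -1.15 for KIF23-AS1. The values of KIF2A and KIF21A rest on the first daunorubicin array of p53 siRNA cells, the one with low actin and GAPDH ratios, and were 0.36 and 0.25 without it. That of KIF23-AS1 comes from signals below the dim level. The mitotic values of this list are with all arrays, and that first array was the highest of its 3 for 10 of 12 mitotic kinesins other than KIF2B. The other probe set of KIF22 changed by -1.33 in GL2 and -1.32 in p53 siRNA cells. Those of KIF14, KIF20B, KIF23 and KIF2C were lower in GL2 than in p53 siRNA cells.

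For MLN4924 the difference among the mitotic kinesins was 3.14 for KIFC1, 2.06 for KIF11, 1.81 for KIF18B, 1.74 for KIF15, 1.73 for KIF23, 1.44 for KIF4A, 1.34 for KIF2C, 1.29 for KIF14, 1.27 for KIF22, 1.22 for KIF18A, 1.17 for KIF20B and 1.09 for KIF20A. Among the remaining genes it was 0.95 for KIF5C and -2.06 for KIF17. KIF5C was at 0.56 without the library labelled GL2 siRNA MLN4924 replicate 3, and KIF17, with signals below the dim level on every array, was at -1.02 without GL2 siRNA MLN4924 replicate 1. Neither passed the test then. The mitotic values of this list are with all arrays. Among the MLN4924 arrays of GL2 siRNA cells the library labelled replicate 3 was the lowest for 12 of 12 mitotic kinesins other than KIF2B.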

How the results depend on the processing

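Every count of kinesins called was recomputed under 12 other settings and with each array left out. Leaving out 1 array in turn gave 18 to 21 kinesins for Nutlin, 19 to 21 for daunorubicin and 18 to 19 for MLN4924 in GL2 siRNA cells. In p53 siRNA cells it gave 0 for Nutlin, 5 to 10 for daunorubicin (10 without the first daunorubicin array) and 6 to 8 for MLN4924. MLN4924 gave 9 to 12 in CDT1 and 13 to 15 in BRCA1 siRNA cells. Under DMSO the ranges were 1 to 2 for p53 siRNA (2 without p53 siRNA DMSO second set replicate 2), 4 to 6 for CDT1 siRNA and 9 to 12 for BRCA1 siRNA. The change differed between p53 and GL2 siRNA cells for 15 to 17 kinesins with Nutlin, 17 to 20 with daunorubicin and 12 to 16 with MLN4924, between CDT1 and GL2 siRNA cells for 0 to 1 (1 without the library labelled GL2 siRNA MLN4924 replicate 3) and between BRCA1 and GL2 siRNA cells for 0. MLN4924 and Nutlin differed for 20 to 25, and daunorubicin and Nutlin for 0 to 1.

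Some counts moved by over 1.5 times. Nutlin in p53 siRNA cells, at 0, gave 2 with the second DMSO set, 3 at the deposited scaling, 1 with dim genes left out and 1 with no fold minimum. Daunorubicin in p53 siRNA cells, at 5, gave 9 with no fold minimum, 10 without the 3 doubted libraries and 2 with only the groups compared in the fit. MLN4924 in p53 siRNA cells, at 8, gave 5 with quantile normalization, 4 with 16 added and 5 with the mean of all probe sets. MLN4924 in BRCA1 siRNA cells, at 16, gave 7 with only the groups compared. Under DMSO p53 siRNA, at 1, gave 3 with the second DMSO set and 5 with no fold minimum, and CDT1 siRNA, at 6, gave 3 with the mean of all probe sets. The MLN4924 change between CDT1 and GL2 siRNA cells, at 0, gave 2 at the deposited scaling, 2 with quantile normalization, 1 with 16 added, 3 without the doubted libraries and 2 with only the groups compared, and that between BRCA1 and GL2 siRNA cells, at 0, gave 1 at the deposited scaling, with quantile normalization and without the doubted libraries. Daunorubicin against Nutlin, at 1, gave 4 at the deposited scaling, with quantile normalization and with dim genes left out, 3 with a trended robust fit, 5 without the doubted libraries, and 0 with the mean of all probe sets, only the groups compared and the replicate block. The direction of KIF9 with daunorubicin in GL2 siRNA cells reversed with the mean of all probe sets, 0.0150 in place of -0.60. The cause of these moves was not tested.

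Replicate numbers in the labels were not taken as a pairing. For deviations from group means, 0 of 91 pairs of groups had every same-number correlation above 0.1 (median -0.0044). The mean correlation with arrays of other groups was highest for an array's own number in 12 of 42 arrays. With the replicate number as a block the counts were 21, 20, 19, 0, 5, 8, 11 and 15 for the 8 drug comparisons with DMSO, in the order above, 1, 6 and 12 for the siRNAs under DMSO, 16, 20, 14, 0 and 0 for the differences of changes, and 23 and 0 between drugs. The number of 3 arrays a group and signals near the dim level limit what these data can show for KIF2B, KIF17, KIF24 and the antisense RNAs.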
